A study of Mus musculus with 4 samples.

Results

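Phgdh and Psat1 encode the enzymes of the opening steps of serine synthesis. They were taken as the rows of the authors' deposited gene table whose symbol field named either gene. Each was named by 1 transcript cluster, a set of probes read out together on this array type, so the 2 genes make up 2 of the 369 genes that the table names among 35557 clusters on the array. The table holds only clusters whose group means differed 1.45-fold or more. A gene named in it therefore differed between the groups by construction.

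Expression was measured on Affymetrix arrays in total RNA of whole mouse spinal cord at postnatal day 14, on a mixed background given as c57.129. The 2 Sip1 cKO samples carried Sip1c/c;Olig1-Cre: both copies of Sip1, the transcriptional repressor now named Zeb2, were conditional, and Cre recombinase was driven from Olig1, a gene of oligodendrocyte lineage cells. Littermates with Sip1c/+;Olig1-Cre gave the 2 control samples, so that these also carried the Cre and 1 conditional copy. The labels call the samples biological replicates and do not say how many animals went into each. The array medians lay between 6.62 and 6.70 on the log2 scale. Zeb2, the targeted gene, read 10.29 and 10.47 in control and 8.61 and 8.66 in Sip1 cKO, in the direction of the labels. Where its probes lie relative to the deleted part was not analysed.

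Serine is made from an intermediate of glycolysis in 3 steps. Phgdh, phosphoglycerate dehydrogenase, oxidises phosphoglycerate and commits it to the pathway, Psat1, phosphoserine aminotransferase, adds an amino group from glutamate, and Psph removes the phosphate. The serine feeds protein, glycine and the folate cycle, phosphatidylserine, and sphingolipids, whose backbone is built from serine and a fatty acyl-CoA and which are abundant in myelin. In the nervous system the enzymes are known mainly from radial glia and astrocytes, which pass serine to neurons, and are also present in the oligodendrocyte lineage. Both genes are textbook targets of Atf4, the transcription factor of the amino acid response.

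The bases just upstream of each start site are shown because both genes read lower in the same samples, and because the factor deleted here is known to bind CACCT in DNA. Both genes were matched in the RefSeq promoter table of GRCm38.p6. The Phgdh stretch is chr3:98339970-98340219 and the Psat1 stretch, before the first of the 2 start sites listed, is chr19:15925060-15925309. Each is the minus strand, 250 bases long and ends at the base before the start site. Capitals mark CACCT on either strand (CACCT or AGGTG) and CCAAT, the box bound by NF-Y, on either strand (CCAAT or ATTGG).

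Phgdh: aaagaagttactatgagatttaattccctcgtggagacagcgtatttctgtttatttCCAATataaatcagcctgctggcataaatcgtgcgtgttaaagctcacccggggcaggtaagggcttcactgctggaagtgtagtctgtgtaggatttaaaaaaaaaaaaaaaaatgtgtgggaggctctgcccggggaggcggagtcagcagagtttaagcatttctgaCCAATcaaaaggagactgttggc

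Psat1: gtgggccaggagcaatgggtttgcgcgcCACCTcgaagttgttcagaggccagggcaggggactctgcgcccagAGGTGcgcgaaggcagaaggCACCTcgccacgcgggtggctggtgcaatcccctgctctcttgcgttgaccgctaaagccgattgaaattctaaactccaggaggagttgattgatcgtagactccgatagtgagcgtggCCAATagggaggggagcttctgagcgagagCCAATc

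CACCT was found 3 times before Psat1, beginning 222, 176 and 156 bases before the start, and 0 times before Phgdh. At least 1 match on either strand was held by 46.0% of the 32851 promoter stretches of this length listed, so holding it at all is common. The share of stretches with 3 matches was not analysed. CCAAT was found 2 times in each stretch, 193 and 23 bases before the start of Phgdh and 36 and 6 bases before that of Psat1, against 33.8% of all stretches with at least 1 match. TGATGNAA, the form of the composite element read by Atf4 and its partners that was searched, matched neither stretch and is held by 3.45% of stretches. The matches of CACCT and CCAAT did not overlap. The stretch before the second Psat1 start site, not printed, held CACCT 1 time, CCAAT 0 times and TGATGNAA 0 times. A match in letters is no measurement of binding.

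Psat1 was lower in Sip1 cKO by more than the spread between replicates. On the log2 scale it read 10.35 and 10.59 in control against 9.29 and 9.32 in Sip1 cKO. Both Sip1 cKO arrays lay below both control arrays, with 1.03 between the lowest control and the highest Sip1 cKO value. The group means were 10.47 ± 0.17 and 9.30 ± 0.02 (SD, n = 2 each). The log2 change was -1.16 with a standard error of 0.12, or 2.24-fold lower (limma over all clusters, two-sided, adjusted p = 0.0343). This left 44.7% of the control level, with a 95% interval of 36.0% to 55.5%. The call at an adjusted p under 0.05 was lost in each of the 4 fits that left out 1 array, where the change stayed between -1.28 and -1.04 and the adjusted p lay between 0.0718 and 0.161. It was also lost after median centring of the arrays (adjusted p = 0.0508) and with the replicate number as a block (adjusted p = 0.0798).

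Phgdh had a smaller difference in the same direction, which did not pass the test. It read 8.57 and 8.83 in control against 8.01 and 7.99 in Sip1 cKO. The groups did not overlap, with 0.57 between the lowest control and the highest Sip1 cKO value. The means were 8.70 ± 0.18 in control and 8.00 ± 0.01 in Sip1 cKO (SD, n = 2 each). The log2 change was -0.70 with a standard error of 0.12, or 1.63-fold (limma, adjusted p = 0.119), which left 61.5% of the control level with a 95% interval of 49.2% to 76.9%. With clusters below the median signal left out the adjusted p was 0.0375, and without the 6624 lowest cluster identifiers, none of which is in the authors' table, it was 0.0386.

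Of the 2 enzymes 1 passed, where 0.858% of all clusters passed as lower, 0.219% passed as higher, and 55.3% of the 369 genes named by the authors' table passed as lower. The 78 higher calls became 24 with identical rows tested once (269 lower) and 1 with the replicate block (110 lower). Non-overlap in the downward direction, seen for both enzymes, was found in 25.1% of all clusters, and in the upward direction in 24.8%. Of all clusters 360 had a change below that of Psat1, whereas 987 had one below that of Phgdh. Among the 369 named genes the changes of 216 were below that of Psat1 and those of 338 below that of Phgdh. Phgdh was thus among the smallest changes in a table chosen by fold and Psat1 was near its middle. In the authors' deposited table Psat1 was 2.22-fold and Phgdh 1.60-fold higher in control, against 1.45 for the cut-off, and 47 of the 420 listed clusters had a smaller fold than Phgdh.

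**Figure D1:**
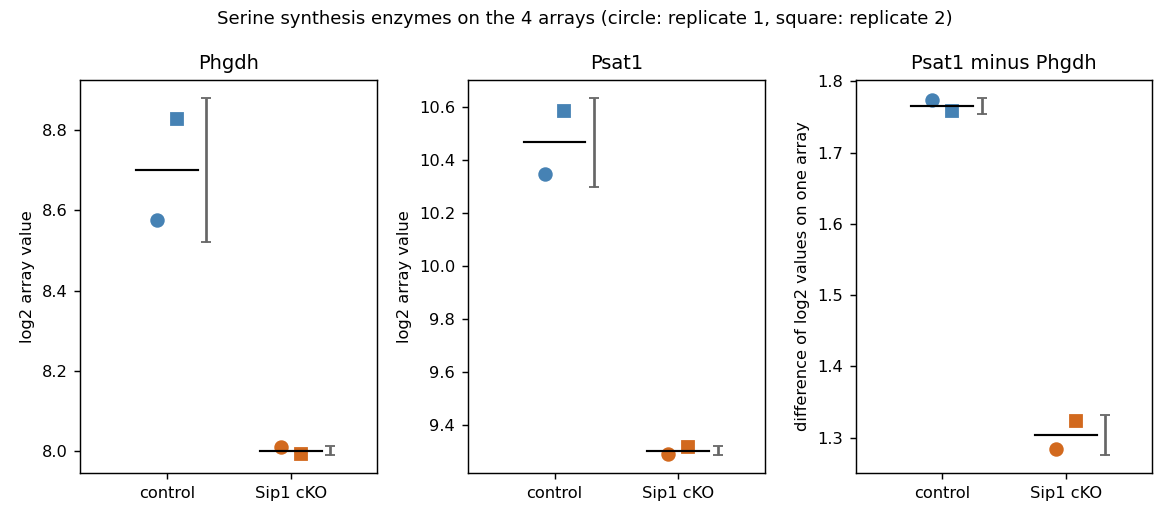
Log2 array values of Phgdh (left) and Psat1 (middle), and the difference Psat1 minus Phgdh on each array (right), in 2 control (blue) and 2 Sip1 cKO (orange) samples. Circles are replicate 1, squares replicate 2, black lines group means and grey bars the mean ± SD. For both genes the Sip1 cKO arrays sit close together and below the control arrays, which lie further apart, while the difference between the enzymes is tight within each group.

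On a linear scale Phgdh read 381 and 455 intensity units in control and 258 and 255 in Sip1 cKO. Psat1 read 1304 and 1538 in control and 627 and 638 in Sip1 cKO. Set against the control mean, the Sip1 cKO arrays kept 61.9% and 61.2% of Phgdh and 44.3% and 45.0% of Psat1. Over the 4 pairings of a Sip1 cKO with a control array, the share kept ranged from 56.1% to 67.6% for Phgdh and from 40.8% to 48.9% for Psat1. These ranges did not meet, so that every pairing left a larger share of Phgdh than of Psat1. The pairings share arrays and are not independent. The intervals of the limma fit given above did overlap, at 49.2% to 76.9% for Phgdh and 36.0% to 55.5% for Psat1.

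The 2 enzymes differed from one another in the size of their measured change. Psat1 minus Phgdh was 1.77 and 1.76 on the control arrays and 1.28 and 1.32 on the Sip1 cKO arrays. Levels of different clusters are not comparable, so only the shift between groups was read. Whether background or signal from similar sequences shrank the change of either cluster was not tested. The shift of Psat1 minus Phgdh was -0.46 with a standard error of 0.02 on the log2 scale. This is a further 1.38-fold loss in the reading of Psat1 relative to that of Phgdh. An exact permutation test gave p = 0.333 (two-sided, n = 2 per group), the smallest value that 2 arrays against 2 allow, so the test could not pass. The shift lay between -0.48 and -0.44 when any 1 array was left out. Much of the spread within control was shared by both genes and cancelled in this difference.

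Control replicate 2 read above control replicate 1 by 0.25 for Phgdh and by 0.24 for Psat1. The same direction held for 303 of the 369 named genes, with a median gap of 0.24, but for only 47.0% of all clusters. The Sip1 cKO arrays differed by 0.02 for Phgdh and 0.02 for Psat1, against a median of 0.11 over all clusters. The part of the control gap in the changes of the 2 enzymes was not tested beyond leaving out each control array, after which the change was -0.83 and -0.57 for Phgdh and -1.28 and -1.04 for Psat1.

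The array identifier raises a question about the cluster that carries the name Phgdh. Of 368 clusters with 1 symbol and a known chromosome, nearly all followed chromosome order when sorted by identifier. Cluster 10558439, named Phgdh, was 1 of 6 that did not: its neighbours by identifier were Plekha1 (10558134) and Taldo1 (10558903), both on chromosome 7, whereas Phgdh lies on chromosome 3. The 21 named chromosome 3 clusters that kept to the order had identifiers from 10491313 to 10502890. GRCm38.p6 lists a Phgdh pseudogene, Phgdh-ps1, on chromosome 7. Probe positions were not analysed here, so signal from Phgdh and from a copy of similar sequence cannot be told apart, and values given for Phgdh are those of this cluster. Cluster 10466410, named Psat1, sat between Myrf and Lipa, which like Psat1 are on chromosome 19.

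**Figure D2:**
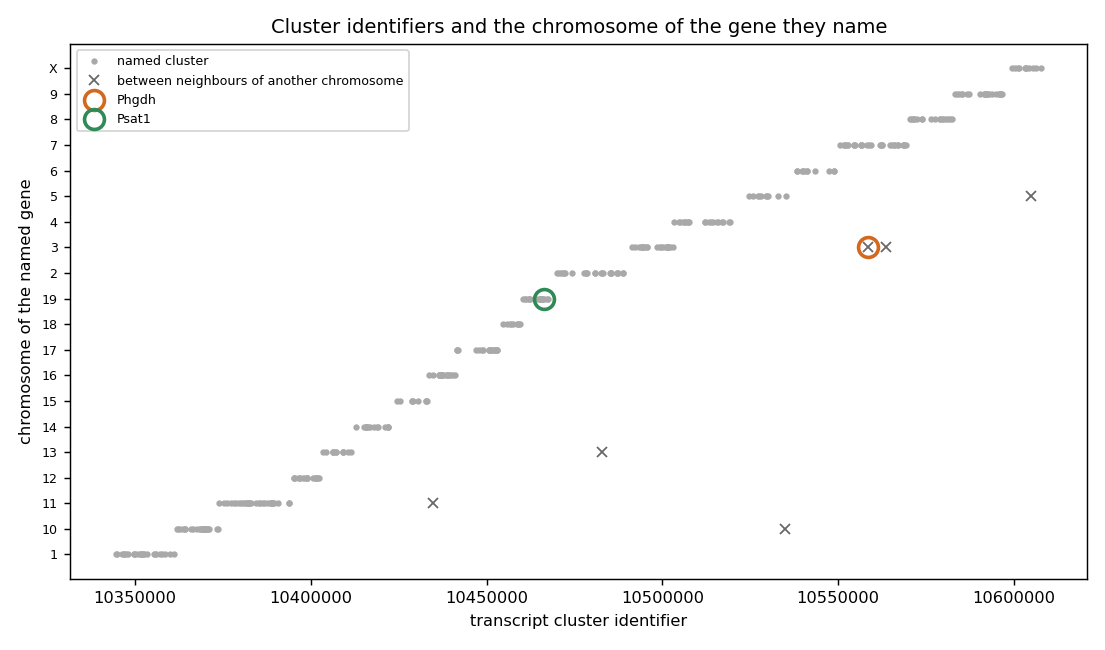
Identifier of each named transcript cluster (horizontal axis) against the chromosome of the gene it names in GRCm38.p6 (vertical axis), for 368 clusters. Grey points follow the order, crosses are the 6 clusters between neighbours that share another chromosome, and rings mark the enzymes. Psat1 lies on the staircase and Phgdh lies off it, within the identifiers of chromosome 7.

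The genes around the enzymes were described from 8 lists with 117 genes in all, of which 10, both enzymes included, were named in the authors' table. On the list of serine synthesis and turnover 3 of 15 genes were named, 2 fell and 1 (Phgdh) missed the threshold, close to the 55.3% of all 369 named genes that passed as lower, and 0 of the 3 passed after median centring or with the replicate block. Their median log2 change was -1.16, which is that of Psat1 itself. The median was -1.29 over the 369 named genes and -0.01 over all clusters. Apart from both enzymes it held Gatm, which transfers the amidino group of arginine to glycine, a product of serine, in creatine synthesis. Gatm read 11.89 and 12.31 in control and 10.63 and 10.70 in Sip1 cKO. It fell by 1.44 on the log2 scale (limma, adjusted p = 0.0457), and 36.9% was left. Psph, Shmt1 and Shmt2 were not analysed here, nor were the 48 genes on the lists of amino acid transport, the folate cycle, glycolysis and phosphatidylserine synthesis, since the table gave none of them a cluster of its own.

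Of 22 genes of the amino acid response 2 were named, with a median log2 change of -0.95. Pycr1, which makes proline, read 7.50 and 7.52 in control and 6.50 and 6.67 in Sip1 cKO, and fell by 0.92 (limma, adjusted p = 0.0458), which left 52.8%. On Sip1 cKO replicate 1 Pycr1 read below that array's median of 6.66. Whether it was above background was not tested, so its share may be an upper bound. Vldlr, a lipoprotein receptor, read 9.26 and 9.51 in control and 8.46 and 8.37 in Sip1 cKO, a log2 change of -0.97 (adjusted p = 0.0591), which left 51.0%. The shares left of both genes lay between those of Psat1 and Phgdh. The calls of Gatm and Pycr1, like that of Psat1, were lost when any 1 array was left out, after median centring and with the replicate block. Those of Gatm and Pycr1 were also lost with identical rows tested once, and that of Pycr1 after a second quantile normalization and with array weights.

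The named genes of myelin sphingolipids, which lie downstream of serine, were left at smaller shares than the enzymes that make it. Of 33 genes on the lists of ceramide synthesis and of galactolipids and related sphingolipids 5 were named and these 5 fell (0.858% of all clusters and 55.3% of named genes passed as lower), with medians of -3.59 (2 of 18 genes) and -2.51 (3 of 15 genes). Fa2h, the hydroxylase of fatty acids bound for myelin sphingolipids, read 11.87 and 12.06 in control and 7.18 and 7.76 in Sip1 cKO, so that 4.43% was left. Ugt8a, which adds galactose to ceramide, kept 7.99%, and Cers2, which joins very long fatty acids to the sphingoid base, kept 15.6%. Gltp, a glycolipid transfer protein, kept 17.5%, and Gal3st1, which sulfates galactosylceramide, kept 25.3%. The 95% intervals of these 5 genes ended at or below 33.6% and that of Psat1 began at 36.0%.

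The difference was also taken on each array. Psat1 minus Gal3st1, the nearest of the 5, was 1.11 and 0.97 in control and 1.81 and 1.91 in Sip1 cKO. The change of Psat1 was thus smaller by 0.82 on the log2 scale, with a standard error of 0.09 (exact permutation test, two-sided, p = 0.333, the smallest possible). Against Fa2h, the furthest, it was smaller by 3.33 for Psat1 and by 3.80 for Phgdh. For the 19 pairs of genes compared in this way the exact p was 0.333 in each case, before and after Benjamini-Hochberg adjustment, so these differences are given by their size and not by the test. The genes came from the authors' fold-selected table, and genes of the lists with smaller folds than its cut-off are not in it. Of the 5 sphingolipid genes 0 passed once a control array, either of the 2, was left out. Leaving out either Sip1 cKO array kept 2 of 2 calls on the ceramide list and 2 of 3 on the other, as did the replicate block.

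**Figure D3:**
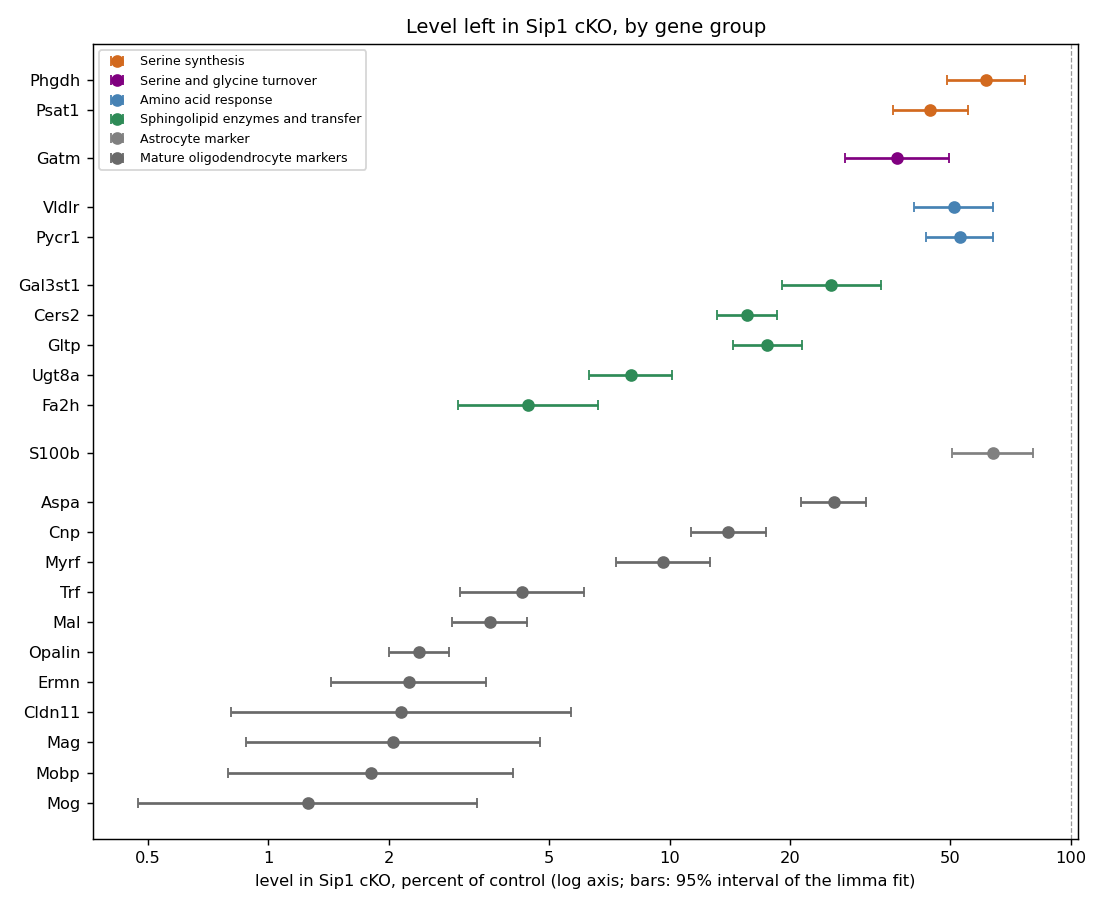
Level in Sip1 cKO as a percent of control (log axis) for the serine synthesis enzymes, the other named genes of the lists and the named cell type markers, with 95% intervals of the limma fit over 2 arrays per group. Phgdh at 61.5% and Psat1 at 44.7% lie to the right of the 5 sphingolipid genes, at 4.43% to 25.3%, and of the mature oligodendrocyte markers. Ugt8a, which belongs to both groups, is drawn with the sphingolipid genes only.

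Oligodendrocyte markers moved with the enzymes and by more. Of 14 markers of mature oligodendrocytes 12 were named and 12 fell, against 0.858% of all clusters and 55.3% of named genes, with a median log2 change of -5.10. Ugt8a is on this list and also among the sphingolipid genes above, so the groups are not separate. The measured shares left lay between 1.25% (Mog) and 25.6% (Aspa). Opalin and Ermn on both Sip1 cKO arrays, and Mog, Mobp, Mag and Cldn11 on 1 of them, read below that array's median, and whether they were above background was not tested, so their shares may be upper bounds. The summed intensity of all 12 markers was 56120 and 59133 on the control arrays and 2689 and 3566 on the Sip1 cKO arrays. Levels of different clusters are not comparable, so this sum mostly reflects the brightest clusters. The lowest value of any marker was 4.45 on the log2 scale. Of the 12 calls 0 were left once either control array was left out, 11 once either Sip1 cKO array was, and 10 with the replicate block. In whole cord, fewer cells of a type and less RNA per cell cannot be told apart. Between the 2 Sip1 cKO arrays the markers differed more than the enzymes. Mog read 5.74 and 7.35, and 9 of the 12 markers read higher in replicate 2. The gap in either direction had a median of 0.31 over the markers and was 0.06 at its smallest, while Phgdh and Psat1 each differed by 0.02. Its median was 0.11 over all clusters and 0.095 over the named genes, so the enzymes' gaps were small against clusters in general too. The part of the markers' cells in the enzymes' changes was not tested.

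Astrocytes, which also express the pathway, could hardly be followed. Of 17 astrocyte markers only S100b was named, a calcium-binding protein that oligodendrocytes also make. The authors' table holds only clusters past its fold cut-off, so S100b was named because it differed. It cannot stand for the other astrocyte markers. S100b read 11.03 and 11.31 in control and 10.54 and 10.51 in Sip1 cKO, a log2 change of -0.65 (limma, adjusted p = 0.141) that left 63.9%. It passed as lower with clusters below the median signal left out, as Phgdh did, but not without the lowest identifiers. Gfap, Aqp4 and Slc1a3 were not analysed here. The markers of oligodendrocyte progenitors, microglia, neurons and endothelial cells, 27 genes on 4 lists, had no cluster of their own in the table either. The part of astrocytes in the enzymes' remaining levels was not tested.

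By a distance that takes in the size of the change, the 2 enzymes were not near one another over the 4 arrays. Their gaps between replicates were alike in size, at 0.25 for Phgdh and 0.24 for Psat1 in control and 0.02 for each in Sip1 cKO. Likeness was taken as the root mean square distance between log2 values after centring each gene on its own mean over the 4 arrays. The 5 named genes nearest to Phgdh were Mob3a, Spata13, S100b, Lpar6 and Gna12, at distances of 0.02 to 0.04. Mob3a is a kinase activator of the Mob family, Lpar6 a receptor for lysophosphatidic acid and Gna12 a G protein subunit. Their log2 changes ran from -0.74 (Gna12) to -0.65 (S100b), and none of them passed the test. The 5 nearest to Psat1 were Plk3, Man1a, Abl1, Gstm7 and Ell2, at 0.03 to 0.04. Plk3 is a kinase of the polo family, Man1a a mannosidase of the Golgi, Abl1 a tyrosine kinase, Gstm7 a glutathione transferase and Ell2 an elongation factor of RNA polymerase. All 5 passed the test as lower, with log2 changes from -1.24 (Gstm7) to -1.11 (Ell2), having been chosen for likeness to a gene that passed. Psat1 ranked 124 of 368 by nearness to Phgdh, and Phgdh 173 by nearness to Psat1, at a distance of 0.23. With 4 arrays in 2 groups such likeness mostly reflects the size of the group difference.

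**Figure D4:**
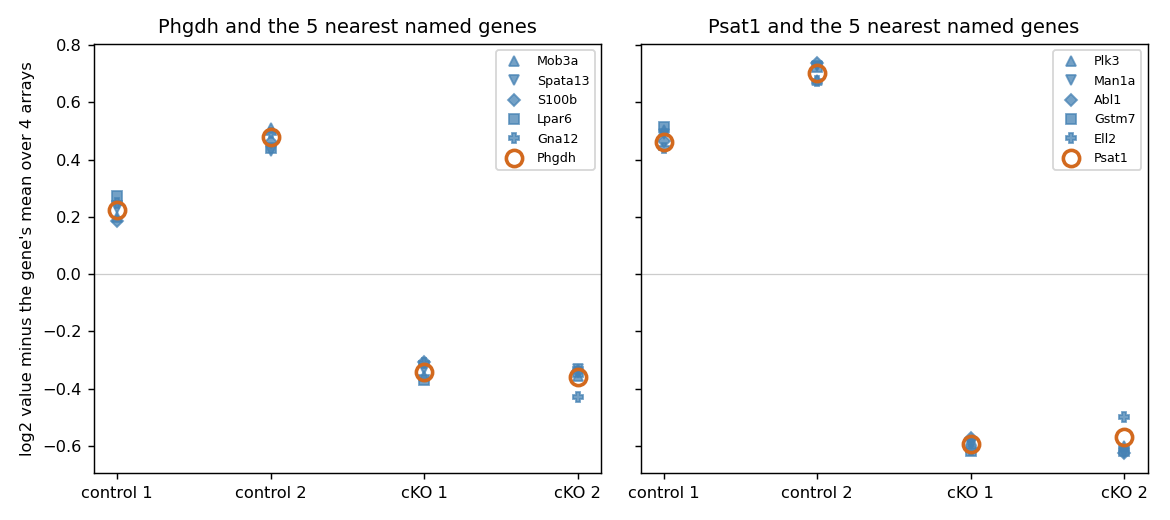
Log2 value minus the gene's mean over the 4 arrays (vertical axis) on each array for Phgdh (left) and Psat1 (right), drawn as open circles, with the 5 nearest named genes in blue. Control replicate 2 is the highest array in each gene shown, and the step from control to Sip1 cKO is larger in the Psat1 panel.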

How the data were processed

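Per the submitters' processing notes the authors used RMA to make the deposited values, which were taken as log2 from their range. RMA brings the arrays to one distribution, so that a shift of most transcripts together is hidden. Neither its version nor a probe annotation or genome build is given in the sources used here. The array type is MoGene-1_0-st-v1, per the file headers. The authors' deposited table gives group mean intensity on a linear scale and the fold as a ratio, higher group over lower, after a filter on the percentile of raw expression (10 to 100). Among its 420 clusters 375 had a single symbol, and symbols were updated through the names of GRCm38.p6. Where several clusters name a gene, the one with the highest mean stands for it.

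Values were used as deposited. The group difference was fitted for 35557 clusters by limma 3.58.1 under R 4.3.3 (lmFit, then eBayes with defaults, two-sided), with no other term, and p-values were adjusted by Benjamini-Hochberg across these clusters. Intervals of a share left are 95% intervals of that fit. Differences between genes were taken per array and tested with an exact permutation test over the 4 arrays. The number of arrays limits the precision. The procedure was tested on simulated data. Over 5 draws, an adjusted p under 0.05 was reached by 7.6% of added changes of log2 size 1 and 84.4% of size 2. Changes of size 1 were thus mostly missed in the simulation, which changed fewer clusters than the 383 that passed in the data. The adjustment depends on how many clusters change, so these shares need not hold for the data. A gene that did not pass may still have changed. The enzymes, gene lists and tests were chosen with earlier results of these data known. From each list every named member is given, up to 6. Alternatives were 2 scalings, a filter on dim clusters, other eBayes settings, array weights, identical rows tested once, the lowest identifiers left out, each array left out and the replicate number as a block. The labels do not say what a replicate number marks, so the numbers were not taken as pairs. Deviations of arrays with the same replicate number from their group means were correlated at r = 0.0764 over the clusters. With 2 arrays per group this cannot exclude pairing.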

Additional observations from a re-analysis of the deposited data

How the results depend on the processing

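Both enzymes and their difference kept their direction in every alternative run. With clusters below the median signal left out and without the lowest identifiers, where fewer clusters were tested, Phgdh passed at the same log2 change of -0.70 (adjusted p = 0.0375 and 0.0386). These were 2 of the 9 alternatives that kept the 4 arrays. In the others Phgdh missed the threshold, with an adjusted p of limma between 0.0646 and 0.170. Psat1 missed the threshold after median centring (-1.13, adjusted p = 0.0508) and with the replicate block (-1.16, adjusted p = 0.0798), and passed in the other 7 alternatives that kept the 4 arrays. Leaving out 1 array in turn moved Phgdh between -0.83 and -0.57, Psat1 between -1.28 and -1.04 (no fit passing), and the difference between the enzymes between -0.48 and -0.44. In those fits the remaining single array borrows its spread from the other group. The number of clusters past the test was 383, and became 894 with the dim filter, 603 with an eBayes trend, 818 without the lowest identifiers, 712 at an adjusted p under 0.1, 111 with the replicate block and 0 to 60 with 1 array left out. With control replicate 1 or control replicate 2 left out 0 clusters passed in limma, although 2949 lower and 2611 higher, and 3527 lower and 3069 higher, had an unadjusted p under 0.05. The log2 changes from the authors' deposited intensities were -0.68 for Phgdh and -1.15 for Psat1. The mean of a gene's clusters could not differ, since each enzyme had 1 cluster. Causes were not tested.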
